A study of Mus musculus with 6 samples.

Results

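The miR-106b-25 and miR-106a-363 clusters are the paralogs of the miR-17-92 cluster, and their miRNAs were examined in pro-B cells of fetal liver and adult bone marrow. The members were taken by name, as every mouse miRNA on the array with the stem miR-106b, miR-93 or miR-25 for the first cluster and miR-106a, miR-18b, miR-20b or miR-363 for the second. This gave 10 miRNAs of the 567 on the array, measured with 28 of its 1672 probes. The files name them with the prefix for mouse, as mmu-miR-106b, mmu-miR-93, mmu-miR-25, mmu-miR-106a, mmu-miR-20b and mmu-miR-363, and the prefix is left out from here on. The first cluster held miR-106b, miR-106b*, miR-93, miR-93* and miR-25, with 14 probes. The second held miR-106a, miR-18b, miR-20b, miR-20b* and miR-363, also with 14 probes. An asterisk marks the passenger arm of a hairpin, the strand that is mostly discarded, so that 7 members were guide arms and 3 were passenger arms.

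The cells were Fr. B/C of the Hardy scheme, the pro-B cells in which the immunoglobulin heavy chain is rearranged, and all came from BALB/c mice with no genetic change or drug in the labels. Fetal liver cells came from 3 sorts, each of the livers of 1 litter at gestation day 16 with 8 embryos on average. Bone marrow cells came from 3 sorts of adult marrow, each from 3 female mice. By its title the study is about Lin28b, which binds RNA and acts in fetal B lymphopoiesis, and the comparison asks how far the miRNAs of these cells depend on the stage of life.

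A miRNA finds its targets mainly through its seed, bases 2 to 8 from the 5′ end, and miRNAs with 1 seed are grouped as a family. All 3 clusters hold copies of the miR-17 family, which slows the production of cell cycle inhibitors and of the pro-apoptotic protein Bim, and of the miR-25/92 family. MiR-17-92 and miR-106a-363 also hold copies of the miR-18 and miR-19 families, which miR-106b-25 lacks. In mice, loss of miR-17-92 blocks B cell development at the step from pro-B to pre-B cells with a rise of Bim, whereas loss of either paralog cluster alone leaves B cells largely intact. Combined loss of miR-17-92 and miR-106b-25 is more severe than loss of miR-17-92 alone.

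The mature guide sequences are shown because the seed groups them and the remaining bases decide which of them a probe can tell apart. They are the RefSeq sequences (GRCm38.p6), written 5′ to 3′ with the seed in capitals, and all 10 members matched a RefSeq entry. The 4 members of the miR-17 family share the seed AAAGUGC.
miR-106b: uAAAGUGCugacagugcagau
miR-93: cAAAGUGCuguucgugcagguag
miR-106a: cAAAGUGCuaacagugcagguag
miR-20b: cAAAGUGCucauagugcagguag
The 2 members of the miR-25/92 family share the seed AUUGCAC.
miR-25: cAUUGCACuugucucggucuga
miR-363: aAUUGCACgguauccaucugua
MiR-18b has the seed AAGGUGC of the miR-18 family.
miR-18b: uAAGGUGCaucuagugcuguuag
The nearest miRNAs of the miR-17-92 cluster, written the same way, are the look-alikes that bear on the array values.
miR-17: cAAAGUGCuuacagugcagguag
miR-20a: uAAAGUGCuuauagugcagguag
miR-18a: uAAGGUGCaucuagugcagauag
miR-92a: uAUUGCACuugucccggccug

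Outside the seed, the paralogs differed to very different degrees. With positions counted from 1 at the 5′ end and the first-named miRNA's base first, miR-106a differed from miR-17 by the single substitution A10U and from miR-20b by A10C and C12U. MiR-20b differed from miR-20a by C1U and C10U. Between the 2 clusters, miR-106b differed from miR-106a by U1C, G10A and A20G (85.7% identity over 21 bases), and miR-93 differed from miR-20b by G10C, U11A and C13A (87.0% over 23 bases). MiR-25 and miR-363 had only 40.9% identity over 22 bases, with 13 substitutions and 0 of them in the seed. MiR-25 was closer to miR-92a, with C1U, U14C and U18C over the 21 bases compared.

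The miR-106b-25 hairpins lie on the minus strand of chromosome 5 within 498 bases (GRCm38.p6, chr5:138165321-138165818), in the order miR-106b, miR-93, miR-25. They sit inside the span of Mcm7 (chr5:138164583-138172111), which encodes a subunit of the replicative helicase. The miR-106a-363 cluster lies on the minus strand of chromosome X within 875 bases (chrX:52741693-52742567), in the order miR-106a, miR-18b, miR-20b, miR-19b-2, miR-92-2 and miR-363. MiR-19b and miR-92a each have 2 loci, on chromosomes 14 and X, with 1 mature sequence. Their probes therefore read both miR-17-92 and miR-106a-363, and these 2 miRNAs were kept out of the members. The 4 probes named miR-92a* are placed by the array's annotation on chromosome X (mm9, 50095069 to 50095086), between those for miR-20b* and miR-363. They were at the floor defined below on all 6 arrays.

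Levels are log2 scaled signals. The processed signal of each probe was divided by the 75th percentile of the 82 probes that passed the background mark on every array, set to a common floor of 16.5 (4.04 on the log2 scale) and put on the log2 scale. Each miRNA was read from its brightest probe. The test covered the 135 miRNAs for which all 3 arrays of fetal liver, of bone marrow or of both were well above background. Differences are fetal liver minus bone marrow, and a call is an adjusted p under 0.05 from limma with Benjamini-Hochberg adjustment over the 135.

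The arrays were of unequal quality. On fetal liver replicate 2, 7.02% of the spots for mouse miRNAs were over background, against 18.4 to 23.7% on the other 5 arrays, and its lowest scaled signal well above background was 106 (6.73 on the log2 scale). The median SD over the tested miRNAs was 0.488 in fetal liver and 0.161 in bone marrow. All 6 arrays shared 1 slide and 1 scan, with the fetal liver arrays in one row of the slide and the bone marrow arrays in the other, so that row and tissue cannot be told apart. Of 7 miRNAs of the B lineage, 4 were well above background on all fetal liver arrays and 7 on all bone marrow arrays. The 4 stromal miRNAs on the array were at the floor on all 6 arrays, and so were miR-192 and miR-194 of hepatocytes, while 1 fetal liver array had miR-122 over background. The summed signal of the erythroid miRNAs was 507 to 763 in fetal liver and 87.6 to 152 in bone marrow, most of it from miR-451, with miR-144 at the floor throughout. That of the myeloid miRNAs was 67.0 to 156 in fetal liver and 391 to 724 in bone marrow. The bone marrow sum came from miR-223 and miR-146a. MiR-511 was higher in fetal liver by 0.89, with bone marrow at the floor, and miR-146b was at the floor throughout. That of 6 stem or progenitor miRNAs was 131 to 185 in fetal liver and 132 to 149 in bone marrow. Of these, miR-130a (1.33) and miR-10b (0.39) were higher in fetal liver. MiR-10a (-0.94), miR-196b (-0.56) and miR-126-3p (-0.15) were lower, and miR-196a was at the floor. The part of these other cells in the results below was not tested. In such bulk samples, fewer cells of a type and less RNA per cell cannot be told apart.

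Of the 10 members, 5 were tested, all of them guide arms: miR-106b, miR-93 and miR-25 of the miR-106b-25 cluster and miR-106a and miR-20b of the miR-106a-363 cluster. None of the 5 was called (limma with Benjamini-Hochberg adjustment), whereas 21.5% of all tested miRNAs were (29 of 135), 10.4% as higher and 11.1% as lower in fetal liver. At an unadjusted p under 0.05, 2 of the 5 members were higher in fetal liver, miR-93 and miR-20b, against 18.5% of all tested miRNAs. All 5 differences were above 0 with this scaling and below 0 without scaling. Of all tested miRNAs 61.5% were above 0, and the median was 0.26 over the 5 members and 0.25 over all tested miRNAs. The median was 0.26 over 3 members of miR-106b-25 and 0.47 over 2 members of miR-106a-363.

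**Figure D1:**
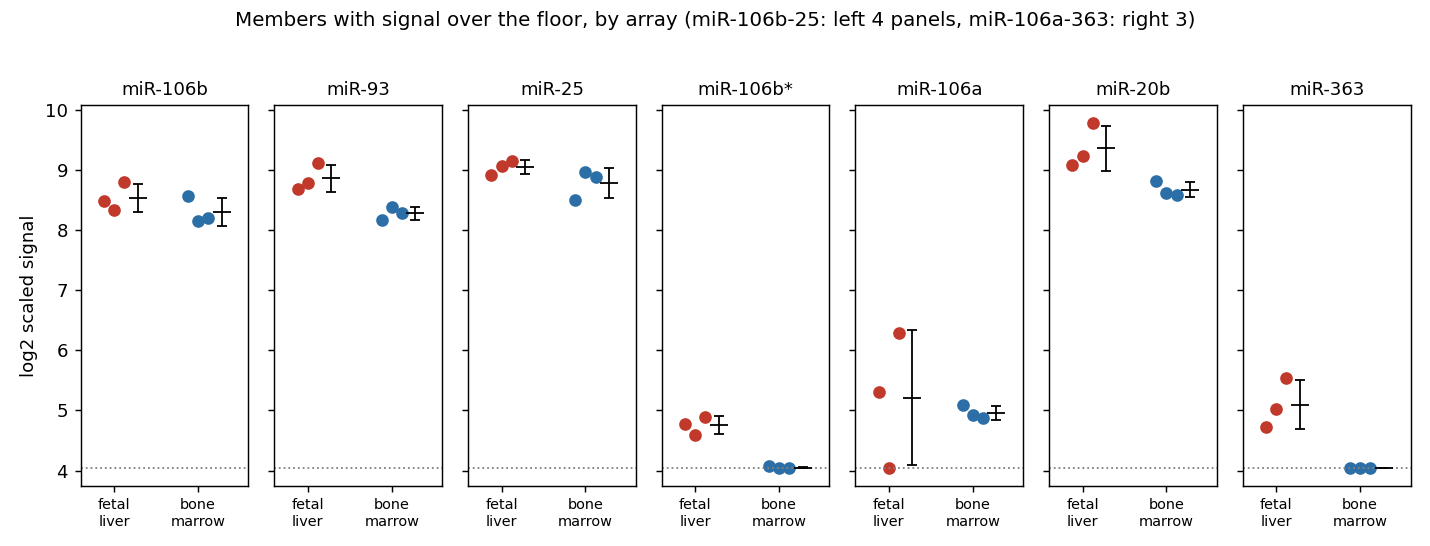
Log2 scaled signal (y axis) of the 7 members with a value over the floor, 1 point per array, fetal liver left of bone marrow. Bars give the mean ± SD (n = 3) and the dotted line the floor of 4.04. MiR-93, miR-20b, miR-106b* and miR-363 show no overlap of the tissues, miR-106b* and miR-363 with bone marrow at or near the floor. Fetal liver was higher without overlap for 22.2% of the tested miRNAs, to which miR-106b* and miR-363 did not belong. Their fetal liver replicate 2 values were not well above background. In all, 3 members lie within 3 log2 units of the floor.

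In the miR-106b-25 cluster, all 3 guide arms were well above background on all 6 arrays, and their tissue differences ran from 0.23 to 0.59. MiR-93, the middle hairpin, had 8.68, 8.79 and 9.11 in fetal liver, against 8.17, 8.38 and 8.28 in bone marrow. Every fetal liver array was above every bone marrow array, as for 22.2% of all tested miRNAs (40.7% did not overlap in either direction). The mean was 8.86 ± 0.22 in fetal liver and 8.27 ± 0.10 in bone marrow (SD, n = 3 each), a difference of 0.59 ± 0.21 (SE, 95% interval 0.08 to 1.09) or 1.50-fold. The test did not pass after adjustment (limma, Benjamini-Hochberg adjusted p = 0.103).

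MiR-106b, the first hairpin, had 8.48, 8.33 and 8.79 in fetal liver, against 8.57, 8.15 and 8.19 in bone marrow. The tissues overlapped, with bone marrow replicate 1 above 2 of the fetal liver arrays. Its difference of 0.23 ± 0.23 (SE) had an interval of -0.32 to 0.79 (limma, Benjamini-Hochberg adjusted p = 0.496). MiR-25, the last hairpin and the cluster's one member of the miR-25/92 family, had 8.92, 9.07 and 9.14 in fetal liver, against 8.50, 8.97 and 8.88 in bone marrow. Bone marrow replicate 1 was the lowest of the 6 arrays and replicate 2 lay above the lowest fetal liver array. The difference was 0.26 ± 0.22 (SE, interval -0.26 to 0.78; limma, Benjamini-Hochberg adjusted p = 0.426). The intervals of miR-106b and miR-25 run up to 0.79 and 0.78, so a difference of the size found for miR-93 lay inside both.

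The passenger arms of this cluster were dim or not seen. MiR-106b* had 4.77, 4.60 and 4.90 in fetal liver, against 4.07, 4.04 and 4.04 in bone marrow, where 2 arrays were at the floor. It was well above background on fetal liver replicates 1 and 3 and on bone marrow replicates 1 and 2, so it was not tested in the main fit. All 3 fetal liver arrays were above the bone marrow arrays, but the value of fetal liver replicate 2 was not well above background. Such separation held for 22.2% of all tested miRNAs, a set that miR-106b* was not in. Its difference of 0.70 depends on the floor, and its 3 other probes were at the floor on all 6 arrays. MiR-93* was well above background on no array and at the floor on all 6.

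In the miR-106a-363 cluster, only miR-20b was well above background on every array. MiR-20b, a guide of the miR-17 family, had 9.08, 9.22 and 9.78 in fetal liver, against 8.81, 8.62 and 8.58 in bone marrow. Every fetal liver array was above every bone marrow array, and fetal liver replicate 3 stood highest. The mean was 9.36 ± 0.37 in fetal liver and 8.67 ± 0.12 in bone marrow (SD, n = 3 each). The difference was 0.69 ± 0.25 (SE, interval 0.09 to 1.29) or 1.61-fold, and it did not pass after adjustment (limma, Benjamini-Hochberg adjusted p = 0.104). Among all tested miRNAs, 75.6% had a smaller signed difference than miR-20b and 67.4% a smaller one than miR-93.

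MiR-106a, the first hairpin of that cluster and also of the miR-17 family, was dim. It had 5.30, 4.04 and 6.29 in fetal liver, against 5.10, 4.92 and 4.87 in bone marrow, and it was at the floor and not well above background on fetal liver replicate 2. The fetal liver arrays lay both above and below all bone marrow arrays, with an SD of 1.13 against 0.12 in bone marrow. The difference was 0.25 ± 0.54 (SE, interval -1.03 to 1.53; limma, Benjamini-Hochberg adjusted p = 0.741). It was 0.83 without fetal liver replicate 2 and -0.29 without fetal liver replicate 3, not called in either case, so that single arrays decided its size and its sign.

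MiR-363, the last hairpin and a miR-25/92 family guide, had 4.73, 5.02 and 5.53 in fetal liver, against the floor of 4.04 on all 3 bone marrow arrays. It was well above background on fetal liver replicates 1 and 3 and on bone marrow replicate 2, so it was not tested in the main fit. The tissues did not overlap, with fetal liver higher. That held for 22.2% of all tested miRNAs, a set that miR-363 was not in. The fetal liver replicate 2 value behind this was not well above background. The difference of 1.05 is measured against the floor, so its size is not exact. Its second probe gave a difference of 0.29, with fetal liver replicate 2 at the floor. MiR-18b, the copy of miR-18a in this cluster, and miR-20b*, the passenger arm of miR-20b, were well above background on no array and at the floor on all 6.

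A looser filter, chosen after seeing the data, tested a miRNA that was well above background on 2 of 3 arrays of a tissue. Of the 154 miRNAs it tested, 11.7% were called as higher in fetal liver, and 2 members were among them: miR-106b* at 0.70 (limma, Benjamini-Hochberg adjusted p = 0.0186) and miR-363 at 1.05 (adjusted p = 0.0251). MiR-363 passed this filter through fetal liver alone and was set against bone marrow values that were all at the floor, with an SD of 0, so its call is largely fixed by the filter and the floor and is given as a description. MiR-106b* passed the filter in both tissues, with bone marrow at the floor on 2 of 3 arrays. With no filter on detection, over all 567 miRNAs, the adjusted p was 0.0521 for miR-106b* and 0.212 for miR-363. In the authors' deposited table, fetal liver minus bone marrow was 0.11 for miR-106b* and 0.31 for miR-363.

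The second probe of each member was compared with the brightest one. For miR-25, it gave a difference of 0.27 against 0.26 from the main probe, and for miR-20b 0.66 against 0.69. For miR-93 the second probe gave 0.05 against 0.59, and for miR-106b 0.02 against 0.23. The second miR-93 probe was not well above background on fetal liver replicate 2, and without that array the 2 probes gave 0.55 for the second and 0.62 for the main one. For miR-106a, not well above background on fetal liver replicate 2 with either probe, the second probe gave 0.46 against 0.25, and 0.98 against 0.83 without that array. Without that array miR-106b had 0.20 from the second probe and 0.33 from the main one. The difference of miR-93 thus rested on its brighter probe when all arrays were kept.

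The 2 clusters were then set against each other within each array, by 3 pairs of paralogs. The gap between 2 probes does not compare amounts, since probes differ in efficiency, so only the change of the gap between tissues was read. MiR-93 minus miR-20b was -0.40, -0.44 and -0.67 in fetal liver, against -0.64, -0.24 and -0.31 in bone marrow. The tissues overlapped and the means, -0.50 ± 0.15 in fetal liver and -0.39 ± 0.21 in bone marrow (SD, n = 3 each), differed by -0.11 (two-sided exact permutation p = 0.5, 0.75 after Benjamini-Hochberg adjustment over the 3 pairs).

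MiR-106b minus miR-106a was 3.18, 4.29 and 2.50 in fetal liver, against 3.47, 3.23 and 3.32 in bone marrow, with a difference of -0.02 between the means (exact permutation p = 1, adjusted 1). Its spread in fetal liver, an SD of 0.90, was that of the dim miR-106a. MiR-25 minus miR-363 was 4.19, 4.05 and 3.61 in fetal liver, against 4.46, 4.92 and 4.84 in bone marrow, where miR-363 was at the floor on all arrays. Each fetal liver array was below each bone marrow array, and the difference of -0.79 had the smallest p that 3 against 3 arrays allow (exact permutation p = 0.1, adjusted 0.3). With a doubled floor this difference was 0.10, so its direction depended on the floor. No pair showed a difference between the clusters past the threshold, which none could have passed at this sample size.

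**Figure D2:**
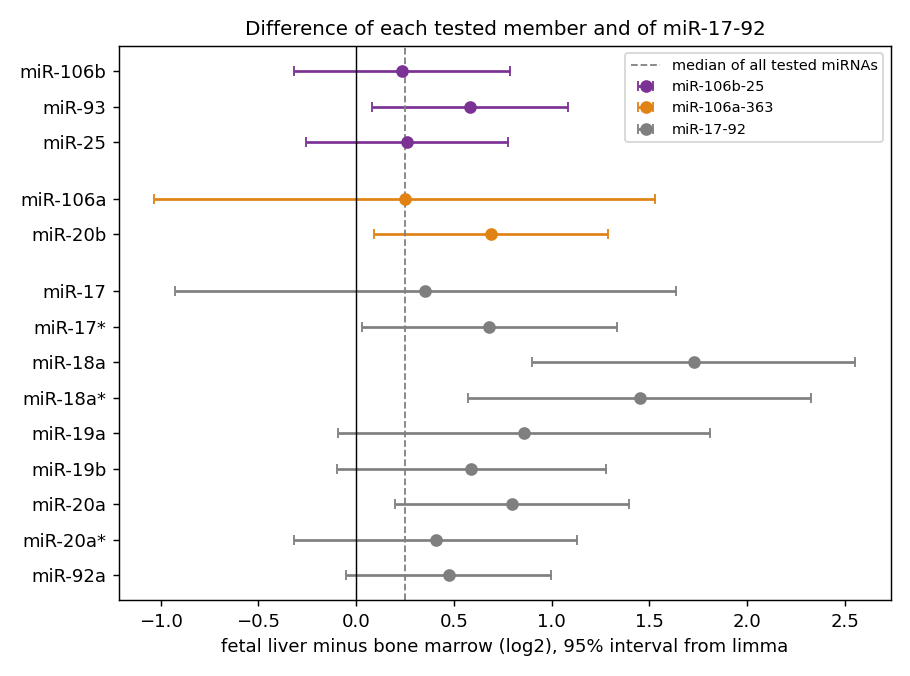
Fetal liver minus bone marrow (x axis, log2) of the tested members of both clusters and of the tested miR-17-92 miRNAs, with 95% intervals from limma. The dashed line is the median of all tested miRNAs, 0.25; the interval of miR-18a, 0.90 to 2.55, lies wholly above it, as does that of miR-18a*.

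The miR-17-92 cluster was measured on the same arrays. Of 11 miR-17-92 miRNAs on the array, counting the miR-92a* probes by name, 9 were tested and 2 rose in fetal liver: miR-18a by 1.73 ± 0.35 (limma, Benjamini-Hochberg adjusted p = 0.0130) and its passenger arm miR-18a* by 1.45 ± 0.37 (adjusted p = 0.0316). Over all tested miRNAs, 10.4% were called as higher in fetal liver. MiR-18a kept its call in 15 of 21 alternatives and miR-18a* in 7. Neither kept it without scaling (limma, Benjamini-Hochberg adjusted p = 0.189 for miR-18a and 0.196 for miR-18a*). With this scaling the median over the 9 was 0.68, and in 7 of the 9 fetal liver was higher without overlap, against 22.2% of all tested miRNAs. Among the 7 were miR-19b and miR-92a, whose probes read both miR-17-92 and miR-106a-363. Without scaling, 4 of the 9 were below 0 (miR-17, miR-17*, miR-19b and miR-92a). MiR-18b, the paralog of miR-18a on chromosome X, differs from it by U18A and U20A and was at the floor on all arrays while miR-18a was well above background on all 6. MiR-20a, the look-alike of miR-20b, was higher by 0.80 ± 0.25 without passing (limma, Benjamini-Hochberg adjusted p = 0.0659). The difference between the clusters was not tested as such.

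By seed, the miR-17 family had 6 miRNAs on the array, the 4 members with miR-17 and miR-20a. All 6 were tested and 0 were called, against 21.5% of all tested miRNAs. At an unadjusted p under 0.05 in limma, 3 of the 6 were higher in fetal liver, against 18.5% of all tested. With this scaling their differences ran from 0.23 for miR-106b to 0.80 for miR-20a, with a median of 0.47. The miR-25/92 family also had 6: of these, miR-32 and miR-367 were at the floor on all arrays, miR-92b was well above background on none, and miR-92a differed by 0.47 ± 0.22 (limma, Benjamini-Hochberg adjusted p = 0.185). Of the 2 miRNAs with the miR-18 seed, miR-18a was called and miR-18b was not detected above the floor.

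The probes bear on how far the paralogs can be told apart. The array's annotation gives the stretch that each probe covers, and the spacing of the probe ends was that of the 3′ ends of the RefSeq mature sequences for all 10 members. The covered stretch was therefore read from the 3′ end of the RefSeq sequence. The probes themselves were not read as sequences. The main miR-106a probe covers 15 bases, positions 9 to 23, and its second probe 14. Within the covered stretch, miR-17 differs at 1 base, and 3 other miRNAs (miR-17, miR-20a and miR-20b) differ at no more than 2. The main miR-17 probe covers 14 bases, positions 10 to 23, with 1 mismatch to miR-106a, and the second miR-17 probe covers positions 11 to 23, with 0 mismatches to miR-106a. The covered stretches are shown in capitals, with the main probe first.
miR-106a, main probe: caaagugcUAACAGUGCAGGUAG
miR-106a, second probe: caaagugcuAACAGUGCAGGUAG
miR-17, main probe: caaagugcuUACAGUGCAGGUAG
miR-17, second probe: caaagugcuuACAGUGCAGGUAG
miR-20b, main probe: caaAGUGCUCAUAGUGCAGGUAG
miR-20a, main probe: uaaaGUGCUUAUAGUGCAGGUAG
The miR-20b probes cover 20 and 19 bases and have 1 mismatch to miR-20a. The main probes of the chromosome 5 cluster were more distinct, counted over mature miRNAs in which the whole covered stretch could be placed. There were at least 2 mismatches for miR-106b, 3 for miR-93 and 4 for miR-25. The count for miR-25 leaves out miR-92a in register, since its 21 bases are too few for the 18 covered. In that stretch miR-92a differs from miR-25 by U14C and U18C and lacks the last base. How much of the miR-25 signal came from miR-92a was not tested.

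The values of the look-alikes ran together across the arrays. MiR-17 had 5.33, 4.04 and 6.29 in fetal liver, against 4.95, 4.87 and 4.78 in bone marrow, and miR-106a minus miR-17 stayed between -0.03 and 0.15 on all 6 arrays. Both were at the floor on fetal liver replicate 2, which sets their gap there to 0, so that array does not bear on their likeness. Both were highest on the same array. MiR-20a had 9.91, 10.09 and 10.64 in fetal liver, against 9.52, 9.39 and 9.34 in bone marrow, and miR-20b minus miR-20a stayed between -0.86 and -0.71. How much of the miR-106a and miR-20b signal came from miR-17 and miR-20a was not tested.

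**Figure D3:**
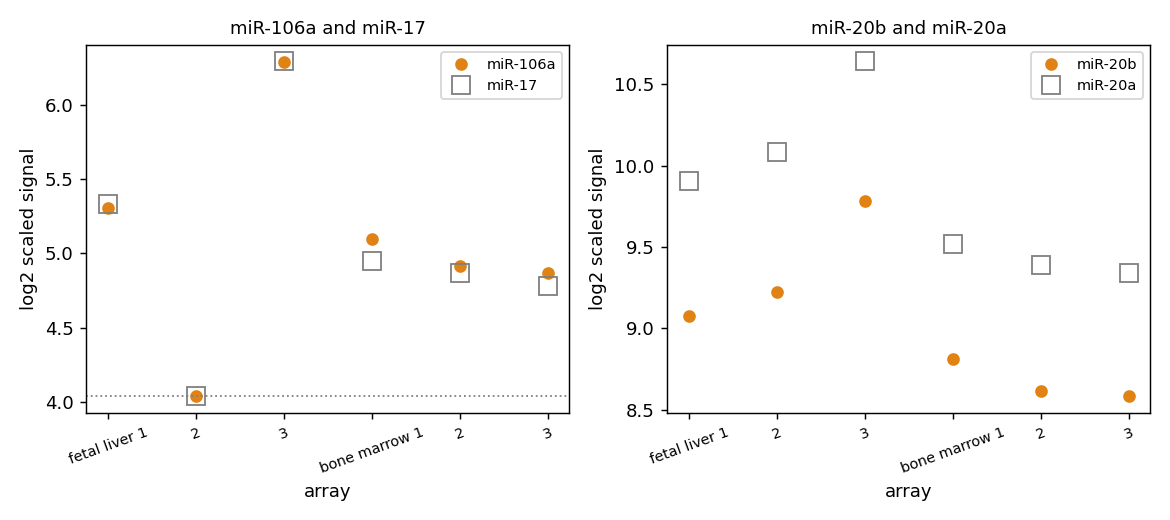
Log2 scaled signal (y axis) on each array, fetal liver replicates left of bone marrow replicates, for miR-106a with miR-17 (left) and miR-20b with miR-20a (right). The dotted line is the floor of 4.04. MiR-106a follows miR-17 within 0.15 on every array, where fetal liver replicate 2 has both set to the floor. MiR-20b lies 0.71 to 0.86 below miR-20a.

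The likeness of each member's profile to the other tested miRNAs was described by Pearson's r over the 6 arrays, among 130 tested miRNAs that were no members. These values share the arrays and their scaling, and they hold the tissue difference. MiR-20b was most like miR-20a (r = 0.997), miR-18a (0.983) and miR-19b (0.977), all of miR-17-92. MiR-93 was most like miR-107 (0.975), miR-103 (0.963) and miR-20a (0.958). MiR-106b was most like miR-27b (0.968), miR-142-3p (0.943) and miR-19a (0.930), and miR-25 was most like miR-181d (0.807), miR-350 (0.769) and miR-103 (0.695).

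Profiles within a cluster were not all alike. Within miR-106b-25, r was 0.80 for miR-93 with miR-25, 0.58 for miR-93 with miR-106b and 0.01 for miR-106b with miR-25. Within miR-106a-363 it was 0.53 for miR-106a with miR-20b. Across the clusters it was 0.93 for miR-93 with miR-20b, 0.81 for miR-106b with miR-20b and 0.56 for miR-25 with miR-20b. With miR-106a, which was at the floor on fetal liver replicate 2, it was 0.73 for miR-106b, 0.42 for miR-93 and 0.12 for miR-25. On bone marrow replicate 1, miR-106b was the highest of the 3 marrow arrays while miR-93 and miR-25 were the lowest. MiR-106b minus its passenger arm miR-106b* was 3.72, 3.74 and 3.90 in fetal liver, against 4.50, 4.11 and 4.15 in bone marrow, and the bone marrow values are set by the floor on 2 of the 3 arrays.

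The sign of the members' differences depended on how the arrays were scaled. The median of all tested miRNAs was 0.25 with the scaling used here, -0.50 without scaling, -0.06 with the 75th percentile over all mouse probes, 0.03 with quantile normalization and 0.02 in the authors' deposited table. Calls split into 14 higher and 15 lower in the main fit, 4 and 20 without scaling, 6 and 15 with all mouse probes, 9 and 17 with quantile normalization, and 11 and 18 in the deposited table. Without scaling all 5 members were below 0: miR-106b -0.53, miR-25 -0.50, miR-106a -0.23, miR-93 -0.18 and miR-20b -0.07.

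Relative to the median of all tested miRNAs, 2 members kept 1 direction in all 5 scalings. MiR-93 lay 0.32 to 0.49 above that median and miR-20b 0.43 to 0.67 above it. The main scaling, no scaling and all mouse probes differ by a factor per array, so the agreement among them is set by construction. MiR-106b ran from -0.03 to 0.18, miR-25 from 0 to 0.24 and miR-106a from -0.08 to 0.28, where its highest value was that without scaling. MiR-20b passed in the deposited table (limma, Benjamini-Hochberg adjusted p = 0.0457) and the other 4 scalings called 0 members.

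**Figure D4:**
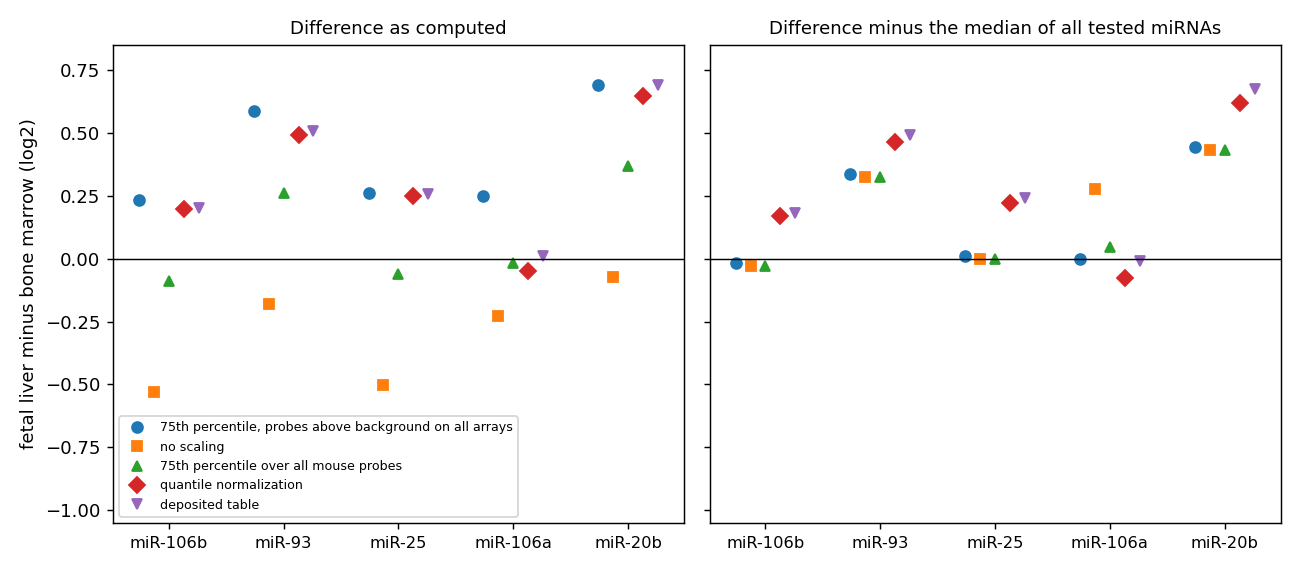
Fetal liver minus bone marrow (y axis, log2) of the 5 tested members under 5 scalings, as computed (left) and after subtracting the median of all tested miRNAs (right). Without scaling all 5 lie below 0 at left. At right miR-93 and miR-20b lie above 0 under every scaling, but subtracting the median cancels any factor per array. Agreement there among the settings that differ by such a factor is set by construction.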

How the data were processed

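MiRNAs of Fr. B/C cells from 3 fetal liver and 3 bone marrow sorts were measured on 1-colour Agilent arrays, with 100 ng of total RNA labelled with Cy3 per array, per the labels' protocols. The deposited scanner tables hold spot intensities on a linear scale, background-subtracted within each array by Feature Extraction 9.5.3.1 and not scaled between arrays, per the file headers. They also hold flags of 0 or 1, such as well above background, per the file headers. The authors also deposited log2 values per spot. Their 6 columns share 1 distribution (4.66 to 15.8) and the direction was that of the scanner values (rank correlations 0.963 to 0.994), but the background correction was not settled. That table served as an alternative only.

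Spots of a probe (5 to 10 for the members) were averaged without outlier flags, and a probe was well above background where over 50% of its spots were. Scaling, floor (taken per array at the 5th percentile of the scaled signals over background, then as the median of the 6 arrays) and filter are given with the results. The tissues were compared over 135 miRNAs with limma 3.58.1 (R 4.3.3) and no covariates, and the fit was tested on simulated data. Paralog pairs were compared by exact permutation over arrays. Sequences came from RefSeq (GRCm38.p6). The number of arrays limits the precision. Figures were drawn with matplotlib 3.10.9.

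Named were all members, the miR-17-92 miRNAs, those sharing a member's seed and, for each tested member well above background on all arrays, the 3 miRNAs with the highest r. Members, lists and rules were chosen with earlier results of these data known. The replicate numbers name separate sorts. Same-numbered arrays of the tissues had correlations of 0.17, -0.12 and -0.24 between their deviations from the group means, so the numbers were not taken as pairs.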

Additional observations from a re-analysis of the deposited data

How the results depend on the processing

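The count of 29 called miRNAs was 9 with normexp correction (offset 50), 13 with the second probe, 12 with no filter and 19 of 52 when miRNAs had to be well above background on all 6 arrays. Without single arrays it ranged from 14 to 43 (19, 15 and 14 without bone marrow replicates 1, 2 and 3, 43 without fetal liver replicate 3). Of the 21 alternatives, 4 called 1 member of miR-106b-25: a doubled floor (miR-93, limma with Benjamini-Hochberg adjustment, adjusted p = 0.0447), the filter on all 6 arrays (miR-93, 0.0402), an intensity trend (miR-93, 0.0371) and the looser filter (miR-106b*). Also 4 of the 21, in part the same ones, called 1 member of miR-106a-363. MiR-20b was called with the filter on all 6 arrays (limma, Benjamini-Hochberg adjusted p = 0.0497), in the deposited table (0.0457) and with the trend (0.0454). The looser filter called miR-363, which passed it through fetal liver alone, so that this call is no support. Over all tested miRNAs, 14 of 135 were called as higher in fetal liver in the main fit. With the doubled floor 12 of 135 were, with the trend 17 of 135 and with the filter on all 6 arrays 14 of 52. It was 18 of 154 with the looser filter and 11 of 135 with the deposited values. Leaving out single arrays called 0 members, with adjusted p-values of 0.0920 to 0.296 for miR-93 and 0.0783 to 0.291 for miR-20b. The replicate block gave 23 calls and 0 members (adjusted p 0.246 for miR-93 and 0.220 for miR-20b); not every array correlated best with its own number.

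Without scaling, differences turned negative for miR-106b (-0.53), miR-25 (-0.50), miR-106a (-0.23), miR-93 (-0.18), miR-20b (-0.072), miR-17 (-0.12), miR-17* (-0.082), miR-19b (-0.18) and miR-92a (-0.29). With all mouse probes they did for miR-106a (-0.016), miR-106b (-0.090) and miR-25 (-0.063), and with quantile normalization for miR-106a (-0.050) and miR-92a (-0.12). MiR-20a* was -0.61 with a floor of 1 and -0.039 in the deposited table. The pair miR-106b minus miR-106a reversed with quantile normalization (0.25), a floor of 1 (0.20) and the deposited table (0.19), and ran from -0.50 to 0.39 without single arrays. MiR-25 minus miR-363 was 0.10 with a doubled floor and -0.94 to -0.62 without single arrays, and miR-93 minus miR-20b was -0.23 to -0.02. Without single arrays miR-106a ran from -0.29 to 0.83 and miR-17 from -0.18 to 0.95. The causes were not tested. Signals near the floor, on fetal liver replicate 2 above all, limit what is said of miR-106a, miR-106b* and miR-363.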
